A study of Homo sapiens with 9 samples.

Results

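The genes described here are the replication-dependent histone genes, chosen by symbol alone: every row of the count table whose name is H1 with a numbered suffix, or H2AC, H2BC, H3C or H4C followed by a number. The rule found 70 of 56312 rows, or 0.124%, with 7 genes of the linker class H1 and 17, 18, 13 and 15 of the core classes H2A, H2B, H3 and H4. RNA was sequenced from the human line HNES1, wild-type pluripotent stem cells in the naive state, kept before the experiment on mouse feeder cells then plated on Geltrex in naive medium (PXGL: N2B27 with PD0325901, LIF, Gö6983 and XAV939) and moved out of it into N2B27 with XAV939 in all groups. The DMSO group received the solvent, the PROTAC group 2.5 µM UNC6852, which leads EED to the proteasome, and the UNC group 1 µM UNC1999, which blocks the catalytic subunits EZH1 and EZH2 of the same Polycomb repressive complex 2 (PRC2). Agents were added 24 h before PXGL was withdrawn, renewed daily and kept until harvest on day 5, and each group had 3 libraries that the labels call biological replicates. All groups share the 1 cell line, and the libraries hold 31651742 to 101081643 counts.

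Nucleosomes wrap DNA around the core histones H2A, H2B, H3 and H4, and H1 binds the linker DNA between them. Proliferating cells make most of these proteins in S phase, from clustered genes without introns that are transcribed in histone locus bodies under NPAT. Their messengers normally lack a poly(A) tail: they end in a short stem-loop that is bound by SLBP, cut with the help of the U7 particle (LSM10, LSM11), and they are destroyed when DNA synthesis stops. PRC2 acts on their product, since it methylates lysine 27 of histone H3. The name rule also takes genes with a narrower use: H1-6, H2AC1 and H2BC1 are known from the male germ line. The extract protocol describes depletion of ribosomal RNA, whereas the labels' molecule field names poly(A) RNA. These 2 conflicting entries do not settle how far tail-less messengers were kept, which was not tested. Levels of 8 RNAs that carry no poly(A) tail are given below.

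The stem-loop is shown because most replication-dependent histone messengers are known to end in it, although the genes here were chosen by symbol. A histone stem-loop was found in annotated transcripts (GENCODE 29, GRCh38) of 31 of 70 members, and of the 32 whose annotation runs at least 60 bases past the stop codon, 2 had no match, H2BC11 among them. The 3 most frequent forms were carried by 17, 5 and 4 members, with the 4-base loop in capitals:
stem-loop of 17 members: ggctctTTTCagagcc
stem-loop of 5 members: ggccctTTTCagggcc
stem-loop of 4 members: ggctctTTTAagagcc
The form carried by 5 members was found in H4 genes alone among the members (H4C2, H4C5, H4C8, H4C11 and H4C16).

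Promoters differed by class, and they are shown because class is the axis along which levels and changes are read below. RefSeq windows of 300 bases (250 before to 50 after the start, GRCh38.p14) matched 64 members with 68 starts. The octamer ATTTGCAT, read on both strands, lay in 68.8% of H2A and 75.0% of H2B windows, in 0 of 6 H1 and 0 of 13 H4 windows, and in 1.77% of all 35116 windows of the table; the 1 H3 window with it is a start of H3C4 that coincides with the start of H2AC7. GGTCCG lay in 12 of 13 H4 windows against 11.3% of all. CCAAT lay in every H1, H2A, H2B and H3 window but in 3 of 13 H4 windows, against 34.6% of all, and TATAAA in 66.2% of member windows against 11.5%. The next lines give the 150 bases before the start, 5′ to 3′ on the gene's strand, with these 4 motifs in capitals, for H1-3 and H3C7, the members called most often in UNC, for H4C5 and H2BC21 as examples of the H4 element and the octamer, and for the matching pair H2AC18 and H2AC19.
H1-3 (chr6:26234988-26235137, minus strand): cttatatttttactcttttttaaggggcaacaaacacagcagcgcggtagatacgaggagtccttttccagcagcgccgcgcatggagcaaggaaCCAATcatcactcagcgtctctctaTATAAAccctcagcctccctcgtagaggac
H3C7 (chr6:26250636-26250785, minus strand): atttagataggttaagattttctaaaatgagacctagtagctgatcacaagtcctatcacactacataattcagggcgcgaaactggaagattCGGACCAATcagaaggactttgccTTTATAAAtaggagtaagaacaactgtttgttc
H4C5 (chr6:26204460-26204609, plus strand): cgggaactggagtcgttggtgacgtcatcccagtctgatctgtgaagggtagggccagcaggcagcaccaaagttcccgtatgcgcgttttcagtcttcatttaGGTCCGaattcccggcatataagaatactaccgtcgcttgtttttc
H2BC21 (chr1:149886683-149886832, minus strand): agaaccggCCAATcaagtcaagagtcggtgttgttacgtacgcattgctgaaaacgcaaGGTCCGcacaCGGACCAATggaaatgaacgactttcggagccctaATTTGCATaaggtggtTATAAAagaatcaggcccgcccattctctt
H2AC18 (chr1:149842751-149842900, minus strand): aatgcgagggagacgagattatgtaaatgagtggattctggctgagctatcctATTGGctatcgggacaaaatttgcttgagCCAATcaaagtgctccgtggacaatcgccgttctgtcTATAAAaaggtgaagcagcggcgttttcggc
H2AC19 (chr1:149850911-149851060, plus strand): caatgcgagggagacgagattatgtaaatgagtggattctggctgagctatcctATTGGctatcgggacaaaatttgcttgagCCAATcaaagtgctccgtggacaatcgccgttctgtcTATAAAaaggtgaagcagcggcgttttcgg
Capitals also mark motifs read on the other strand, and where GGTCCG on that strand runs into CCAAT, in H3C7 and H2BC21, the overlap is printed as 1 block. The 300-base windows of H2AC18 and H2AC19, set off by 1 base, are identical over 299 bases.

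Most members lie in the large cluster on chromosome 6. By the file's coordinates 34 genes fall between 25723397 and 26285638 (6p22 A), 5 between 27122657 and 27147562 (6p22 B) and 16 between 27807479 and 27893891 (6p22 C); 11 lie in 1q21, 2 in 1q42, and 2 stand alone elsewhere, H4C16 on chromosome 12 among them. The 6p22 genes held 87.9% of histone CPM (depth-normalised counts, with library sizes scaled by the trimmed mean of M values, TMM), 1q21 6.38% and 1q42 0.922%. Of the members, 58 had a mean of at least 10 CPM over the 9 libraries and held 99.6% of the histone CPM, and 13 at or above 100 CPM held 48.0%. Expression was spread over many copies: in no class did 1 gene hold more than the 26.9% that H1-5 held of H1.

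Among the linker histones, H1-5 was highest at 295.9 ± 28.2 CPM (SD, n = 9), followed by H1-2 at 243.8 ± 14.4 and H1-4 at 227.3 ± 15.7, and they held 26.9%, 22.2% and 20.7% of H1 CPM. In H2A the 4 leading genes lay close together: H2AC6 at 87.7 ± 8.18, H2AC17 at 86.1 ± 15.2, H2AC8 at 85.1 ± 12.1 and H2AC11 at 76.2 ± 10.1 CPM, or 46.9% of the class. H2B was led by H2BC12 at 169.4 ± 24.1, H2BC4 at 141.3 ± 20.6, H2BC5 at 101.8 ± 13.9 and H2BC21 at 85.1 ± 10.2 CPM, or 41.8% of the class. H3 was led by H3C12 at 125.7 ± 18.8, H3C2 at 122.8 ± 9.68, H3C11 at 113.8 ± 10.9 and H3C8 at 64.9 ± 7.85 CPM, or 59.8%, and H4 by H4C5 at 159.7 ± 17.7, H4C6 at 120.98 ± 17.3, H4C3 at 99.7 ± 12.2 and H4C4 at 83.6 ± 8.85 CPM, or 64.8%. These SDs span all 9 libraries and so include any treatment difference.

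Levels can be compared between genes only per length, so CPM were divided by the coding length in kb (GENCODE 29), which leaves out the untranslated ends. On this scale H4C5 was highest at 516.8 ± 57.3 CPM per kb, then H2BC12 at 448.1 ± 63.8, H1-5 at 436.4 ± 41.6 and H4C6 at 391.5 ± 55.98. The core class medians were 158 CPM per kb for H2B, 117.5 for H3, 116 for H2A and 94.03 for H4. Of the 70 members, 28 span over 1000 bases in the file's annotation. Among them are H2BC12 (9558 bases) and H2BC4 (37610), each with a coding length of 378 bases. What the rest of a long row adds to its value was not tested. Another row overlaps 46 members, on the same strand in 22. H3C12 and H2AC17 overlap each other on the same strand, and H1-6 lies inside the row of H2BC4. How reads shared by overlapping rows were counted is not given in the sources used here, so these levels and their order are uncertain. Neighbours in this order can hardly be told apart: of 69 neighbouring pairs, the ranges over the 9 libraries overlapped in 66. The exceptions were the steps from H2AC15 to H4C12, from H4C12 to H4C11 and from H4C11 to H3C15.

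**Figure D1:**
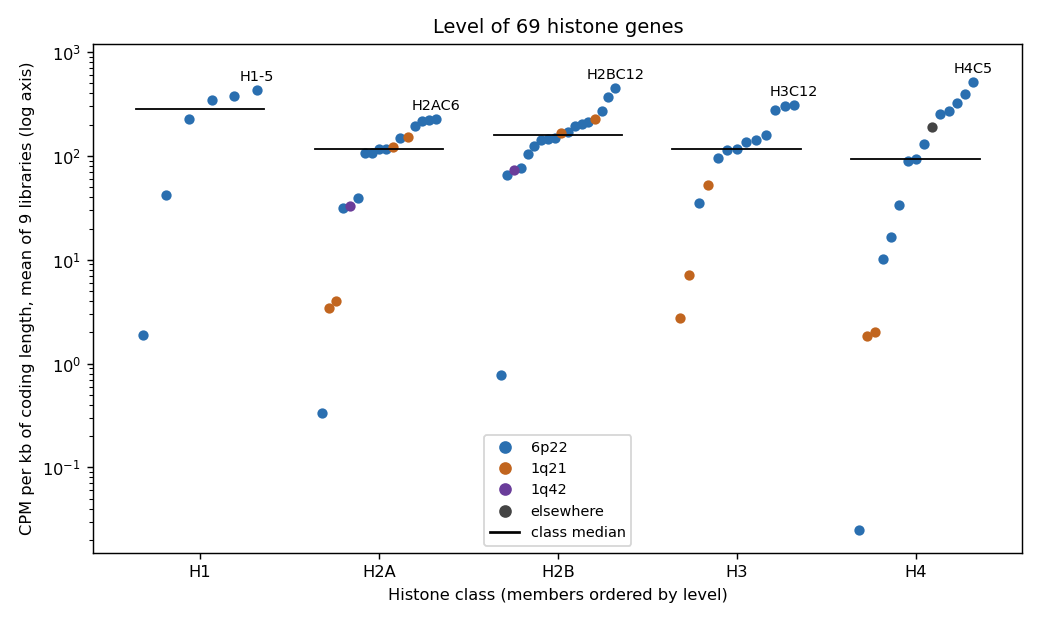
Each point is 1 of 69 members at its mean over 9 libraries in CPM per kb of coding length, on a log axis, by class and coloured by cluster; the line is the median of the points shown. The core class medians lie between 94.03 and 158 CPM per kb, and the lowest point of each class is H1-6, H2AC1, H2BC1, H3C14 and H4C7.

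At the bottom of the order were members with next to no signal. H4C7 had 0 to 2 counts and was the 1 member not tested. The germ-line genes H2AC1, H2BC1 and H1-6 had means of 0.131, 0.294 and 1.18 CPM. The marker lists placed the libraries as pluripotent: summed CPM of 8 general pluripotency genes ran from 4871 to 5547, of 12 naive genes from 1580 to 1814 and of 12 primed or formative genes from 662 to 868.

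H2A and H2B genes often share a divergent promoter. By their annotated starts 12 H2A-H2B pairs face away from each other at 170 to 251 bases. The 2 partners' mean CPM differed by 1.03-fold (H2AC14 at 40.9 and H2BC14 at 39.6) to 4.52-fold (H2AC15 at 12.3 and H2BC15 at 55.6), with a median of 1.52-fold, and the H2B gene was the higher in 7 of 12 pairs. H2BC12, the most abundant H2B gene, stood at 169.4 CPM beside 56.9 for its partner H2AC12. These CPM are not divided by length, and the spans of the rows differ within pairs. In the file's annotation H2BC12 spans 9558 bases beside 457 for H2AC12, and H2BC15 spans 17165 beside 2868 for H2AC15. The H2A row can be the longer, as in H2AC25 with 23097 bases beside 5002 for H2BC26. The part of span in these ratios was not tested.

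Histone messengers as a whole took 0.388% to 0.503% of all counts. Their summed CPM was 4076, 4229 and 4670 in DMSO, 4910, 4135 and 3875 in PROTAC, and 4685, 4245 and 5097 in UNC (libraries 1, 2 and 3). The group means were 4325 ± 308, 4306 ± 538 and 4676 ± 426 CPM (SD, n = 3), and the 3 groups overlapped. PROTAC library 1 was above and PROTAC library 3 below every DMSO library. In bulk RNA fewer cells in S phase and less histone RNA per S-phase cell cannot be told apart. The summed CPM of 25 S-phase genes varied less, from 2618 in PROTAC library 2 to 2826 in PROTAC library 1, and that of 8 RNAs that carry no poly(A) tail ran from 5157 (DMSO library 1) to 7264 (PROTAC library 2). Their part in the histone sums was not tested.

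Among the classes, H1 was the steadiest. Its sum was 1018, 1001 and 1093 CPM in DMSO, 1205, 1064 and 1029 in PROTAC, and 1159, 1160 and 1175 in UNC, so every UNC library stood above every DMSO library, also on plain library sizes. H2B ranged most, 1.46-fold from 973 CPM in PROTAC library 3 to 1422 in UNC library 3, against 1.20-fold for H1, 1.30-fold for H3, 1.33-fold for H4 and 1.38-fold for H2A. Within the number 2 libraries, H1 was higher in UNC than in DMSO by 0.21 on the log2 scale, while the H2B difference was -0.16 and the H2A difference -0.09. H1 accordingly made up 27.3% of histone CPM in UNC library 2 and 23.1% to 26.6% in the other libraries, and H3 kept between 15.5% and 16.5% throughout.

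**Figure D2:**
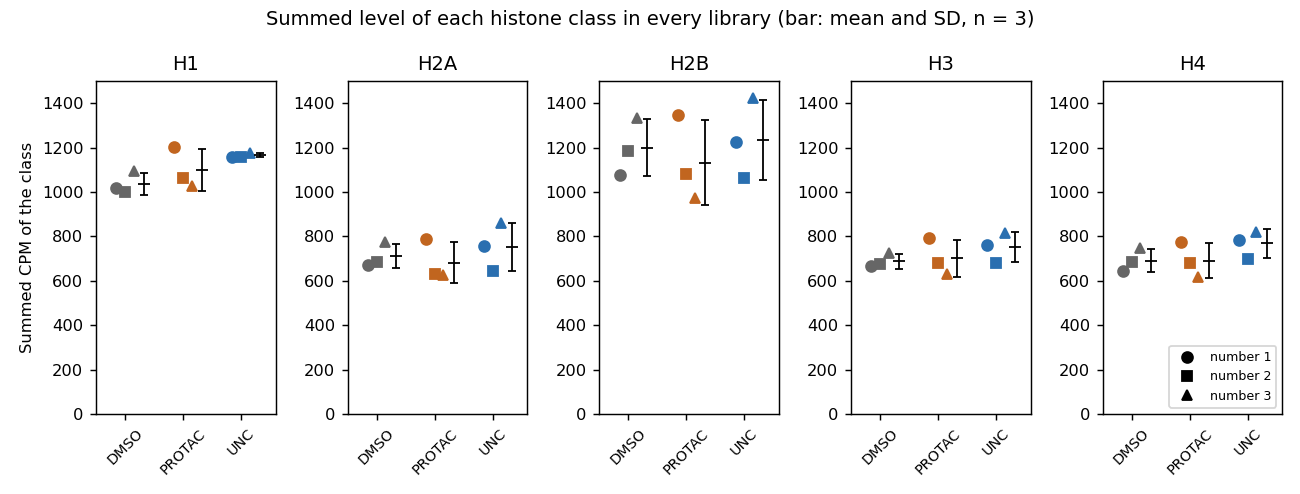
Summed CPM of each class (vertical axis, from 0) in the 9 libraries by group; symbols give the replicate number, and the bar gives the mean and SD of 3 libraries. For H1 the 3 UNC libraries (1159 to 1175 CPM) lie above the 3 DMSO libraries (1001 to 1093 CPM), while the groups overlap for H2A, H2B and H3 and for H4.

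UNC1999 against the solvent compares cells treated with the inhibitor of EZH1 and EZH2. In the fit by group alone (edgeR quasi-likelihood test, false discovery rate under 0.05 over 24187 genes) 0 of 69 members were called, where 0.719% of all genes were called. An unadjusted p under 0.05 was found for 7 members (12.4% of all genes). DESeq2 called H1-3 and H3C7, 2 of 67 members, where it called 4.21% of 19028 genes. Over all genes tested, the libraries of 1 replicate number deviated together, so a fit with the replicate number as a block was made as well. The block lowered the median SE from 0.165 to 0.111 over all genes and from 0.127 to 0.108 over the members. In class H2B it raised the median SE from 0.139 to 0.185. In the fit with the block 8 of 69 members were called (11.6%), 6 higher and 2 lower, where 13.5% of all genes were called, 7.04% higher and 6.46% lower. The members were thus called about as often as other genes. The median log2 fold change of the members was 0.10 (50 of 69 above 0), beside -0.01 over all genes.

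H1-3, a linker histone of the 6p22 A cluster (chromosome 6, 26234212 to 26234987), had the smallest adjusted p. Its level was 128.7, 128.0 and 135.6 CPM in DMSO, 168.9, 146.7 and 137.7 in PROTAC, and 177.1, 159.2 and 162.9 in UNC. Every UNC library was above every DMSO library, and so was every PROTAC library. In UNC it rose by 27.1% in the paired fit (log2 fold change 0.35, SE 0.05, 95% interval 0.23 to 0.46, adjusted p = 2.14e-05), higher in 3 of 3 pairs; by group alone the adjusted p was 0.0702. H1-3 was also called in all 12 paired fits that left out a library or a replicate number. Its row, like those of H3C7, H4C5 and H4C6, overlaps the long noncoding rows ENSG00000291336 and ENSG00000291338, and whether counting used strand is not given in the sources used here. Those rows themselves held 0.623 to 1.22 and 0.322 to 0.623 CPM.

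H3C7, an H3 gene of the same cluster (chromosome 6, 26250142 to 26250635), was also higher in each UNC library. It stood at 40.0, 45.1 and 45.4 CPM in DMSO, 46.8, 49.3 and 46.8 in PROTAC, and 49.6, 54.3 and 54.2 in UNC, with no overlap between UNC and DMSO or between PROTAC and DMSO. In UNC it rose by 21.2% (log2 fold change 0.28, SE 0.06, adjusted p = 0.000541, edgeR with the block; 0.123 by group alone) and was also called in all 12 paired fits with libraries left out. H3C10, an H3 gene of 6p22 C, was at 34.1, 32.9 and 40.2 CPM in DMSO and at 41.7, 41.4 and 43.2 in UNC, again without overlap; it rose by 0.24 on the log2 scale (adjusted p = 0.0135 with the block in edgeR).

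Other called members changed less or were more mixed. H1-4 was at 205, 208 and 231 CPM in DMSO and at 229, 236 and 259 in UNC, with overlap between the groups, and rose by 0.17 on the log2 scale (adjusted p = 0.0240 in the edgeR fit with the block). H2BC15 rose by 0.21 (adjusted p = 0.0434) from 46.7, 53.1 and 56.6 to 55.2, 60.2 and 64.8 CPM. H2BC26, in 1q42, fell by 0.24 (adjusted p = 0.0459), from 27.4, 30.8 and 31.1 CPM in DMSO to 25.5, 21.8 and 28.4 in UNC, where UNC library 3 overlaps DMSO. All these adjusted p come from the edgeR fit with the block over all 24187 genes. H2AC18 also fell and is described with its copy below. Of the 12 paired fits with a library or number left out, H3C10 was called in 7, H1-4 and H2BC26 in 6 each, H2AC18 in 5 and H2BC15 in 4.

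**Figure D3:**
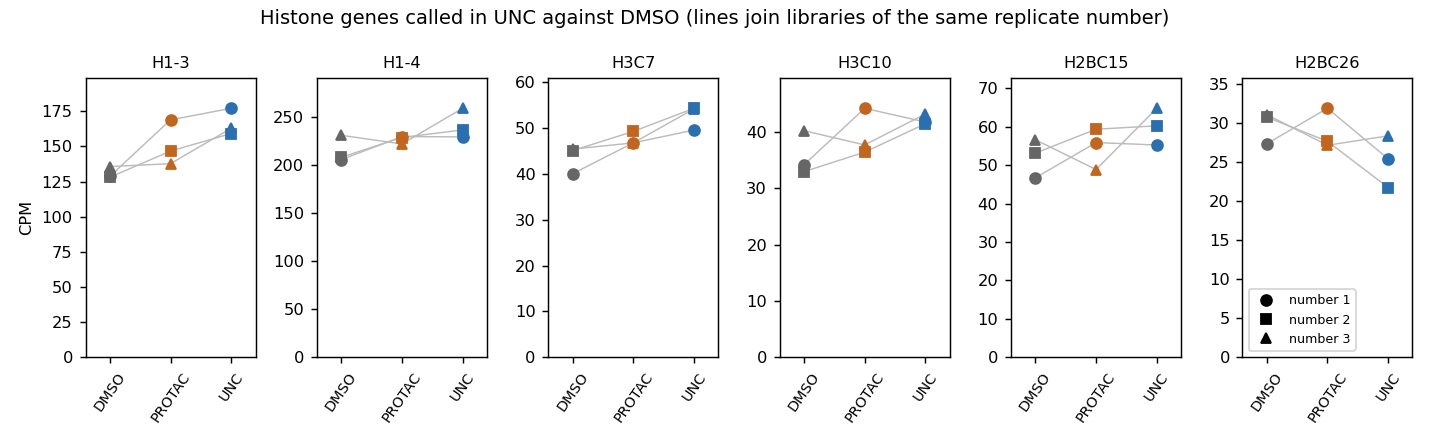
CPM (vertical axes from 0, 1 per gene) of 6 histone genes called in UNC against DMSO in the fit with the replicate number, in each library; lines join libraries of the same number. H1-3, H3C7 and H3C10 show UNC libraries entirely above the DMSO libraries, and H2BC26 is lower in UNC in each of the 3 numbers.

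By class, the median log2 fold change in UNC was 0.13 for H1 (5 of 7 members above 0, 3 called higher), 0.12 for H3 (11 of 13, 2 called higher), 0.12 for H4 (9 of 14, 0 called), 0.08 for H2A (12 of 17, 1 called lower) and 0.06 for H2B (13 of 18, 1 called in each direction). By cluster, 44 of 54 tested 6p22 genes were above 0, with a median of 0.11, beside 5 of 11 in 1q21 (median -0.00) and 0 of 2 in 1q42 (H2BC26 at -0.24 and its divergent partner H2AC25 at -0.19). No difference between classes or clusters was tested. Of the 12 divergent pairs, both partners were above 0 in 7, both below in 1 and opposite in 4. The abundant H4 genes were not called: H4C6 stood at 102, 114 and 121 CPM in DMSO and 134, 119 and 154 in UNC, and H4C5 at 147, 147 and 171 against 177, 158 and 187.

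**Figure D4:**
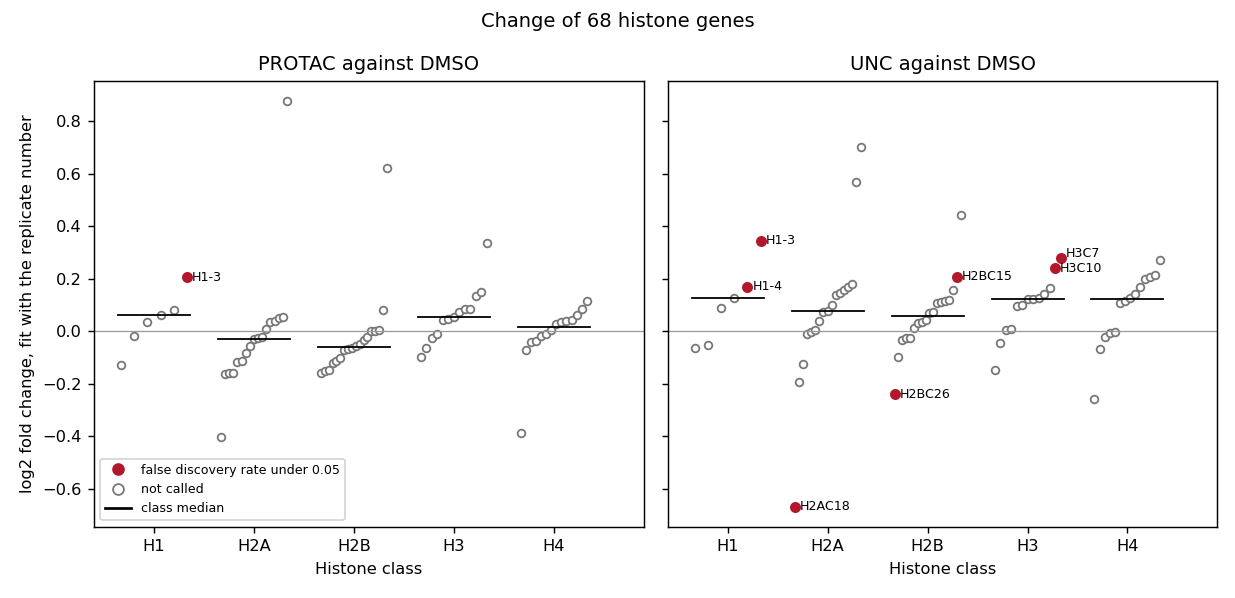
log2 fold change of 68 of the 69 tested members (vertical axis) by class in the fit with the replicate number, for PROTAC against DMSO (left) and UNC against DMSO (right), which share the DMSO libraries; filled points passed a false discovery rate of 0.05 and lines are class medians over all tested members. In UNC 5 filled points lie above 0 and 2 below, in PROTAC 1 lies above 0, and the 2 highest open points of the PROTAC panel are the germ-line genes H2AC1 and H2BC1, both under 1 CPM.

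Counts in UNC moved with single libraries. With the block, leaving out 1 library gave 2 to 14 called members. There were 2 without DMSO library 2 (9.47% of all genes called) and 2 without UNC library 2 (6.51%), 5 without PROTAC library 2 (11.6%), 13 without PROTAC library 1 (15.5%) and 14 without PROTAC library 3 (14.1%). The median fell to 0.02 without UNC library 3 and to -0.01 without DMSO library 1. Over the same contrast, markers of other cells moved. With the block 8 of 11 trophoblast genes tested were called lower, where 6.46% of all genes were called lower and 7.04% higher. The trophoblast list's summed CPM ran from 139 to 169 in DMSO and from 127 to 142 in UNC, which overlap. The summed CPM of 9 fibroblast genes did not overlap, at 432 to 475 in DMSO and 369 to 427 in UNC. COL1A1, COL1A2 and THY1 made up most of this sum. COL3A1, DCN, LUM and POSTN, which were not tested, were at 0 to 0.0765 CPM in every library. Of the 5 tested, 3 were called lower and 1 higher with the block. The riser, THY1, is also on the primed or formative list. It was at 190.4, 179.4 and 193.8 CPM in DMSO and 224.7, 198.1 and 206.8 in UNC. COL1A1, a collagen gene, was at 103.1, 91.4 and 66.4 CPM in DMSO and 51.1, 49.3 and 33.8 in UNC. Of 7 amnion genes tested 3 were called lower and 1 higher with the block. Their part in the histone changes was not tested.

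UNC6852 against the solvent compares cells treated with the EED degrader. By group alone 0 of 69 members were called, as were 0 of all genes (0%). An unadjusted p under 0.05 was found for 1 member (4.96% of all genes), and DESeq2 called 0 members (0.124% of all genes). With the replicate number in the model 1 of 69 was called (1.45%) where 2.99% of all genes were: H1-3, which rose by 15.4% (log2 fold change 0.21, SE 0.06, 95% interval 0.09 to 0.32, adjusted p = 0.0305 in edgeR) and was higher in 3 of 3 pairs. H1-3 lost the call in 7 of the 12 paired fits with a library or number left out, and also under upper-quartile scaling and plain library sizes.

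The members as a group moved in no single direction in PROTAC. Their median log2 fold change was -0.01, with 33 of 69 above 0, the same as the -0.01 of all genes. Within the replicate numbers the summed CPM differed from DMSO by 0.27, -0.03 and -0.27 on the log2 scale for numbers 1, 2 and 3. Class H2B showed the widest split, at 0.32, -0.14 and -0.45. The summed CPM of 13 mitochondrial genes was 41651 to 49402 in DMSO and 31765 to 37738 in PROTAC, with no overlap, and 34723 to 47290 in UNC; its part in the histone values was not tested. Without PROTAC library 1 the paired median became -0.12 with 10 of 69 above 0, and without PROTAC library 3 it became 0.11 with 62 of 69 above 0, and the DMSO libraries moved it too: it was -0.11 (16 of 69) without DMSO library 1, 0.06 (48) without DMSO library 2 and 0.05 (43) without DMSO library 3. H2BC12, for example, was at 186, 155 and 133 CPM in the PROTAC libraries, beside 156, 167 and 193 in DMSO.

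The direct comparison of PROTAC with UNC sets 2 doses that differ, 2.5 and 1 µM. By group alone 0 of 69 members were called (0.00827% of all genes). An unadjusted p under 0.05 was found for 3 (4.70% of all genes), and DESeq2 called 0 (0.646% of all genes). With the block 1 was called (1.45%, against 2.91% of all genes), H2AC19, which had a log2 fold change of -0.72 (SE 0.20, edgeR adjusted p = 0.0407) and is 1 of an identical pair. For H1-3 the difference was -0.14 (95% interval -0.25 to -0.03, adjusted p = 0.215 in edgeR) and for H3C7 -0.14 (-0.26 to -0.03, adjusted p = 0.214), which did not pass the threshold. The members' median was -0.10, with 15 of 69 above 0. Without PROTAC library 1, 10 members were called, all lower in PROTAC, where 2.52% of all genes were called in either direction, and without PROTAC library 3 the median became 0.03.

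There are 4 pairs of members that have the same coding sequence to the base: H2AC18 and H2AC19, H3C14 and H3C15, H4C14 and H4C15 in 1q21, and H4C11 and H4C12 in 6p22 C. Reads from such copies can be placed on either gene, so the split between them is uncertain. How reads that match both copies were counted is not given in the sources used here. All members of these 4 pairs had means under 10 CPM. Their levels and sums, and the 1q21 values that include them, are therefore uncertain too, and the part of counting was not tested. H2AC18 was at 1.73, 1.89 and 2.38 CPM in DMSO and 1.11, 0.867 and 1.87 in UNC, and fell by 0.67 (SE 0.22, adjusted p = 0.0389 in the edgeR fit with the block). H2AC19 went the other way, from 0.986, 0.903 and 1.77 CPM to 1.93, 1.35 and 2.01, a log2 fold change of 0.57 that was not called (adjusted p = 0.0560, edgeR). Their sum was 3.22 ± 0.81 CPM in DMSO and 3.05 ± 0.83 in UNC (SD, n = 3), which differed by less than the spread between libraries. The other 2 pairs in 1q21 were as low: H3C14 and H3C15 together had 3.92 ± 0.17 CPM in DMSO and H4C14 and H4C15 1.25 ± 0.04. H4C12 and H4C11 had means of 5.13 and 3.12 CPM.

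**Figure D5:**
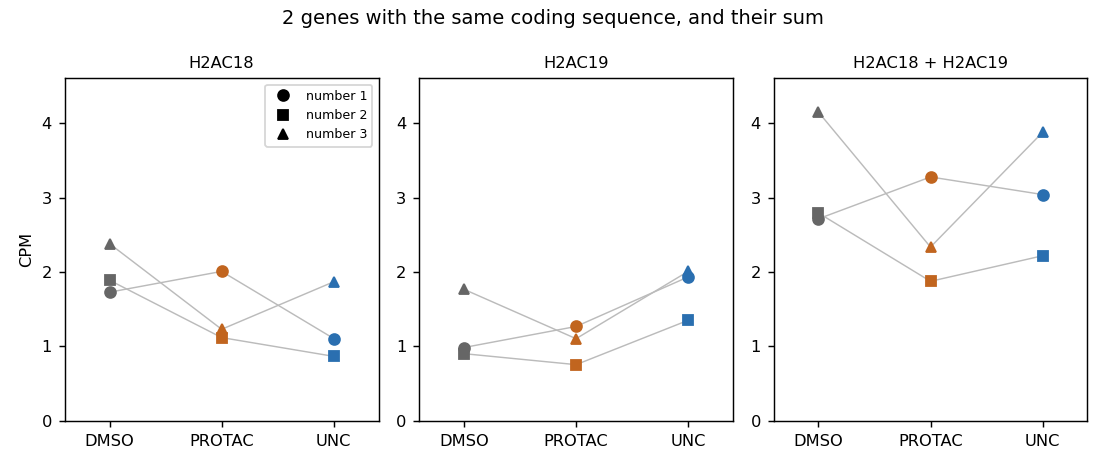
CPM (vertical axis) of H2AC18, of H2AC19 and of their sum in each library by group; lines join libraries of the same replicate number. Within each number UNC is below DMSO for H2AC18 and above it for H2AC19, and the sum (1.87 to 4.15 CPM) overlaps between groups.

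The replicate numbers were compared with each other as well. In the model with group and number, 10 of 69 members differed between numbers (14.5%), beside 31.5% of all genes, among them H3C13, H2BC21, H2AC6, H2AC7, H2AC25, H1-5, H2AC19, H4C2 and H4C4. H3C13 had means of 24.2, 18.3 and 21.6 CPM for numbers 1, 2 and 3 (adjusted p = 0.000260, edgeR), and H2BC21 of 93.7, 75.0 and 86.5 (adjusted p = 0.00372, edgeR). H1-5 followed the same order at 318, 275 and 294 CPM, whereas H2AC6 was highest in number 3, at 82.7, 84.5 and 96.0. In the number 2 libraries the 11 genes of 1q21, which include low identical copies, had a median of -0.34 on the log2 scale against number 1. The median was -0.12 over the 54 genes of 6p22, with -0.08 in 6p22 A, -0.22 in 6p22 B and -0.19 in 6p22 C. No difference between clusters was tested here. The count of members that differed between numbers depends on single libraries. It was 42 without PROTAC library 3 (31.7% of all genes called), 25 without DMSO library 1 (30.6%), 5 without PROTAC library 2 (22.4%) or UNC library 1 (17.1%), and 2 without UNC library 2 (20.1%).

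Genes that make these messengers were counted against the same background as the members: with the block in UNC 13.5% of all genes were called, 7.04% higher and 6.46% lower. Of 26 genes of histone transcription and 3′ end processing, 0 were called by group alone in any comparison. With the block 3 were called higher and 1 lower in UNC, and 0 were called in PROTAC. The risers were LSM11, a U7 protein (log2 fold change 0.20), NCBP2 of the cap-binding complex (0.16) and the cleavage factor CPSF2 (0.15), and the gene that fell was CRAMP1 (-0.19). SLBP itself was at 51.3, 57.2 and 62.4 CPM in DMSO, 54.2, 57.5 and 60.4 in PROTAC and 51.1, 61.1 and 62.3 in UNC, and NPAT at 50.2, 42.4 and 54.3, 55.2, 40.3 and 51.0, and 57.1, 39.5 and 52.2. The groups overlapped for both genes, and neither was called. Of 12 histone mRNA decay genes 1 was called in UNC with the block, EXOSC10, lower by 0.30. Of 25 S-phase genes MCM6 (0.15) and CDT1 (0.19) rose in UNC with the block, and of 16 G2 and M phase genes BUB1 (0.17) and CDK1 (0.18), where 7.04% of all genes were called higher.

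Replacement histones, whose making is not confined to S phase, were listed for comparison. In this list 1 gene also meets the name rule, so it overlaps the members and a call can count on both sides. Of 16 tested, 1 was called higher and 2, H3Y1 and MACROH2A1, lower in UNC with the block, where 13.5% of all genes were called. H3Y1, a primate H3 variant, was at 37.2, 31.7 and 26.8 CPM in DMSO, 51.3, 32.97 and 29.8 in PROTAC and 22.4, 15.02 and 11.3 in UNC, and fell by 1.01 on the log2 scale in UNC, further than any replication-dependent gene called. MACROH2A1 fell by 0.45 in UNC and by 0.51 in PROTAC, 2 comparisons that share the DMSO libraries. In PROTAC, where 2.99% of all genes were called with the block, the linker histone H1-10 rose by 0.26 and H3-3B, which encodes H3.3, by 0.19. Of 24 histone chaperone genes RBBP4 (0.18) was called higher and TONSL (-0.21) and CHAF1A (-0.24) lower in UNC with the block. CHAF1A is the large subunit of the factor that deposits new H3 and H4 behind the fork.

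For the complex itself, the RNA of EED stood at 11.1, 11.3 and 12.5 CPM in DMSO, 12.4, 12.03 and 12.7 in PROTAC, and 12.2, 12.8 and 11.3 in UNC. UNC6852 acts on the protein, so these levels check nothing about its action. EZH2 rose by 0.24 in UNC with the block, from 47.3, 46.6 and 40.1 to 50.6, 60.4 and 48.6 CPM, while SUZ12 and EZH1 were not called.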

How the data were processed

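RNA was sequenced from 9 libraries in 3 groups of 3. The submitters' processing notes name Trim Galore 0.6.10, HISAT2 2.2.1 and the build GRCh38. Which counter, gene models and strandedness were used is not given in the sources used here. Deposited values are raw counts per gene. Libraries were scaled by TMM and tested in R 4.3.3 with edgeR 4.0.16 (quasi-likelihood, robust, default low-count filter, 24187 of 56312 rows kept, two-sided, Benjamini-Hochberg over all of them), by group alone in all 9 libraries and, as an alternative, with the replicate number as a block ("the block", "paired"). Over the tested genes, every same-number pair correlated in deviations from the group means (0.29 to 0.68, 9 pairs, against -0.57 to 0.04 between numbers). Centring each group on its own mean ties these ranges together, so the values between numbers are not separate evidence of pairing. On the same-number correlations, the numbers, taken from the labels, were treated as pairing the libraries. DESeq2 1.42.0 was a further alternative. The fits were tested on simulated data. Genes named were the 4 most abundant members per class, members called in any comparison or between replicate numbers, members with a near-identical copy, up to 4 called genes per list, and EED, EZH2, EZH1 and SUZ12; SLBP and NPAT were added after their values were seen, and 1 member is counted but not reported here by itself. Members and lists were chosen with earlier results of these data known. The labels call the replicates biological without saying how they were separated, so p-values measure the spread between these libraries. Sequences come from RefSeq (GRCh38.p14) and GENCODE 29.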

Additional observations from a re-analysis of the deposited data

How the results depend on the processing

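The fit by group alone called 0 histone genes in each comparison. The replicate block moved this to 1 (PROTAC against DMSO), 8 (UNC against DMSO) and 1 (PROTAC against UNC). With the block 2.99%, 13.5% and 2.91% of all genes were called. With the block and RLE scaling the counts were 1, 10 and 1 (3.2%, 14% and 2.91% of all genes called). They were 0, 7 and 1 with upper-quartile scaling (2.35%, 12.9% and 2.78%). With library size only they were 0, 6 and 1 (2.22%, 12.7% and 2.84%). Without a filter on low counts, by group alone, H1-3 was called in UNC (1, with 2.12% of all genes). H2AC17 was called between PROTAC and UNC (1, with 0.625%), and DESeq2 called 2 in UNC (4.21% of all genes). Leaving out 1 library by group alone gave 0 to 1 in UNC (1 without PROTAC library 1, with 0.682% of all genes) and 0 elsewhere. Leaving out a replicate number together with the block gave 0 to 5, 2 to 8 and 0 to 7. Of all genes 0.605% to 2.77%, 4.92% to 12.1% and 1.31% to 3.17% were then called. Leaving out 1 library with the block, an alternative added after seeing the data, gave 0 to 1, 2 to 14 (13 without PROTAC library 1) and 0 to 10. The shares of all genes were 0.948% to 2.54%, 6.51% to 15.5% and 1.44% to 3.74%. The count between replicate numbers was 10 (31.5% of all genes), with 21 on library sizes only (30.9%) and 3 with no group term (12.3%). With 1 library left out it was 2 to 42, where 17.1% to 31.7% of all genes were called. Of the 10 named fold changes, none changed sign in its 35 alternatives. Summed CPM over all members moved by less than 1 SD in each group with RLE scaling and on plain library sizes. The H1 sum ran from 1113 to 1192 in UNC on plain library sizes, wider than on TMM, and from 994 to 1103 in DMSO. Libraries of 31651742 to 101081643 counts leave genes under 1 CPM with few reads, and 3 libraries a group limit the rest.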
